A study of Bos taurus with 36 samples.

Results

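Expression of 68 genes of the extracellular matrix, of its integrin receptors and of the metalloproteinases and their inhibitors was described in the lactating bovine mammary gland under frequent milking. The members were defined by name, with earlier results of these data known. They were the genes whose single symbol in the array's annotation was that of a collagen alpha chain, a laminin chain, an integrin alpha or beta chain (ITGA2 left out), an MMP or a TIMP, or was FN1, ELN, SPARC, DCN, LUM, BGN or FBN1. They made up 68 of the 9155 genes with a single symbol on the array, and each was read from the probe set with the highest mean level. There were 11 metalloproteinases, 4 TIMPs, 11 integrin alpha chains, 7 integrin beta chains, 5 laminin chains, 5 basement membrane collagens (types IV, XV and XVIII), 9 fibrillar collagens, 9 other collagens, 4 matrix glycoproteins and 3 proteoglycans. ITGAX had no probe set with a single symbol, and ITGB1BP1, ITGB1BP2, ITGB3BP and ITGBL1, which only begin like an integrin, were left out.

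The tissue came from 6 multiparous Holstein cows under unilateral frequent milking. In each cow the left side of the udder was milked 2× daily and the right side 4× daily over days 1 to 21 of lactation, and from then on both sides were milked 2×. One gland of each side was biopsied on days 21, 23 and 40, which gave 6 groups of 6 arrays: 2× and 4× glands on day 21, while the treatment ran, and the same sides on days 23 and 40, when the 4× glands were formerly 4× milked. Each biopsy followed a milking of both sides by a set interval. The biopsies of days 21 and 40 were of rear glands and those of day 23 of fore glands. A comparison of day 23 with day 21 was thus also one of fore with rear glands, and the 4× side was the right side in every cow. The rear glands biopsied on day 40 had already been biopsied on day 21. A comparison of day 40 with day 21 was thus also one of previously biopsied glands with glands not yet biopsied in the study.

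The matrix of the mammary gland has a basement membrane of type IV collagen and laminin beneath the epithelium and around vessels, and an interstitial stroma of fibrillar collagens, elastic fibres and small proteoglycans. Integrins are receptors of an alpha and a beta chain that hold cells to this matrix, and those with ITGB2 are found on leukocytes. Metalloproteinases cleave matrix proteins and are held back by the TIMPs, and the balance between them is best known in the mammary gland from involution after milk removal stops. All the integrin and matrix transcripts were read here in whole biopsies, in which fewer cells of a type and less RNA per cell cannot be told apart.

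Values were log2 levels from the Robust Multichip Average, and array medians lay between 6.04 and 6.15. Differential expression was measured within cows, as the level in the 4× gland less that in its 2× counterpart from that day. It was tested in limma over all 24016 probe sets, with the 3 days as separate means, and a member was called if its unadjusted p was under 0.05. No member passed an adjusted p of 0.05 in any comparison, and each call below is to be read with that limit. The 2× and 4× groups overlapped for every member on every day. Secretory epithelium was well represented in the tissue: mean levels were 15.02 for CSN2, a major casein, and 14.4 for LALBA, the regulator of lactose synthesis.

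Of the subclasses, the means over the integrin beta chains and over the alpha chains were below 0 in every cow on day 21. The mean over the 7 beta chains lay between 8.28 and 9.22 in the 2× glands and between 8.20 and 8.35 in the 4× glands, and the difference within a cow ran from −0.91 to −0.02. The lowest was in cow 1, with ITGB3 at −2.33, and the highest in cow 5, with ITGB3 at −0.30. The sign in cow 5 rested on ITGB3, whose other probe sets gave fitted differences above 0 (below). Over the 11 alpha chains it ran from −0.15 to −0.05, but the median chain differed by −0.02, with 7 chains below 0 and 4 above, and the 3 called (ITGAD, ITGAV and ITGAL) had the most negative values. On day 23 these means differed in both directions among the cows, from −0.13 to 0.24 for beta chains and from −0.12 to 0.13 for alpha chains. Means over the fibrillar collagens, the basement membrane collagens, the metalloproteinases and the proteoglycans differed in both directions among the cows on all 3 days. These means were described and not tested.

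**Figure D1:**
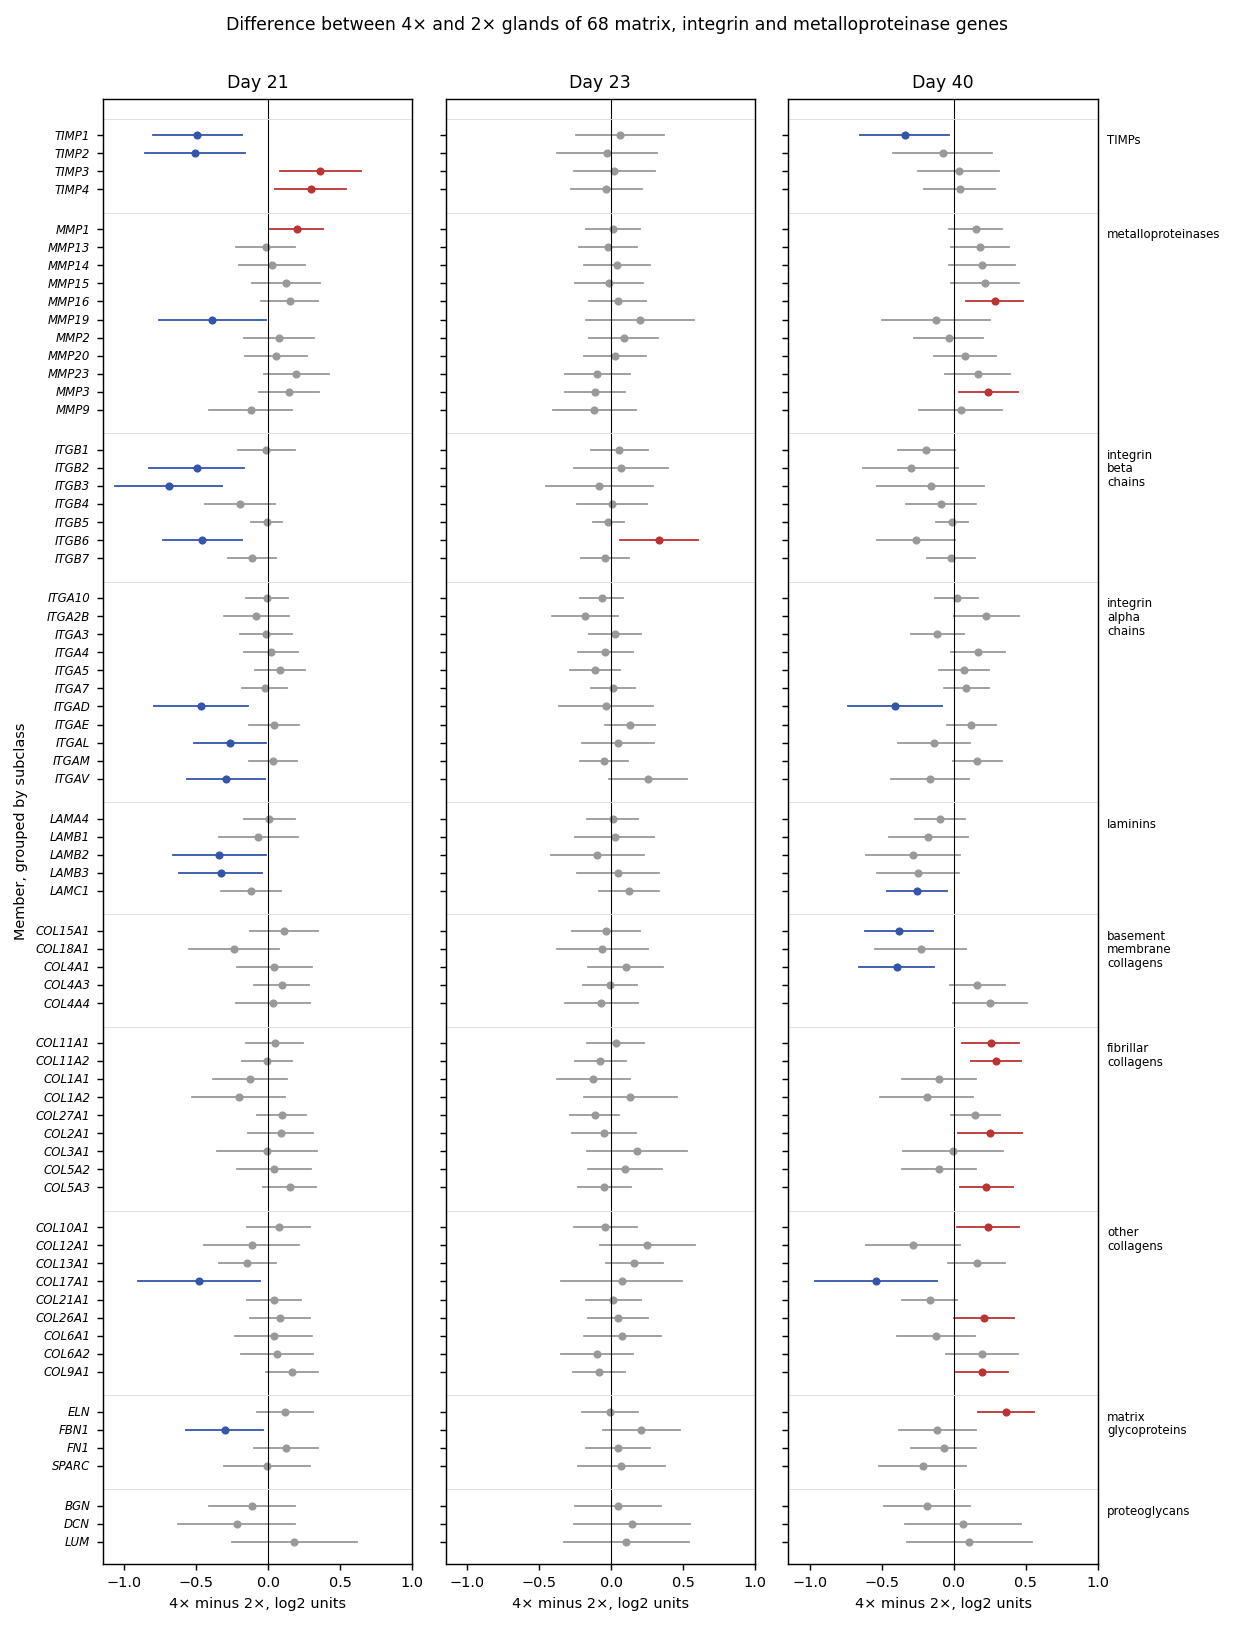
Fitted difference between 4× and 2× glands in log2 units (x axis) for each of the 68 members (y axis, grouped by subclass) on days 21, 23 and 40. Points are limma estimates with 95% confidence intervals over 6 cows, blue for lower and red for higher at an unadjusted p under 0.05, grey otherwise: 13 members were lower and 3 higher on day 21, 1 was higher on day 23, and 6 were lower and 10 higher on day 40.

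While 4× milking ran, 13 of 68 members (19.1%) were lower and 3 (4.41%) were higher in 4× than in 2× glands. Over all probe sets 7.91% were lower and 8.02% higher. The share lower was 9.62% at mean levels from 5 to 8 and 10.4% at 8 and over, and the share higher 8.03% and 15.2%. The members called lower were 3 integrin beta chains, 3 integrin alpha chains, 2 laminin chains, 2 TIMPs, MMP19, COL17A1 and FBN1, and those called higher were TIMP3, TIMP4 and MMP1. No fibrillar collagen, basement membrane collagen or proteoglycan was called in either direction. The median difference of the members was −0.01, against 0.02 over all probe sets, and the smallest adjusted p of a member was 0.180. After scaling of the arrays to 5 reference genes, 7 members were lower and 6 higher. Leaving out cow 1 gave 6 lower and 0 higher, and the count higher was 0 with cow 3 left out and 1 with cow 6 left out. With cow as a fixed block, FBN1, ITGAL, ITGAV and MMP1, of the members given by cow, were no longer called.

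The 4 TIMPs, which inhibit metalloproteinases, split evenly on day 21. TIMP1 lay between 8.06 and 9.56 (median 8.31) in 2× glands and between 7.77 and 8.31 (median 7.97) in 4× glands. Its differences in cows 1 to 6 were −1.64, −0.15, −0.28, −0.30, −0.01 and −0.57, lower in every cow. The fitted difference was −0.49 (SE 0.15, adjusted p = 0.181 from limma), and −0.26 without cow 1, still past the threshold. A further TIMP1 probe set gave −0.60.

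TIMP2 had levels of 8.08 to 9.21 (median 8.35) in 2× glands and 7.44 to 8.43 (median 7.92) in 4× glands. It was lower in 5 of 6 cows, with differences of −0.65, −0.21, −0.78, −0.65, 0.04 and −0.80 in cows 1 to 6. The fitted difference was −0.51 (SE 0.17, adjusted p = 0.182 from limma). It passed the threshold without each cow in turn and under every other setting that read this probe set alone. Of the other TIMP2 probe sets, one gave −0.29 and the dimmer one 0.14.

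TIMP3, which is bound within the matrix, differed in the other direction, from 7.08 to 8.63 (median 8.36) in 2× glands and from 7.95 to 8.88 (median 8.56) in 4× glands. Its differences were 0.87, −0.05, 0.83, 0.01, −0.17 and 0.68, so cows 1, 3 and 6 were high and the other cows near 0. The fitted difference of TIMP3 was 0.36 (SE 0.14, adjusted p = 0.206 from limma), and it lost its call without cow 1 (0.26), cow 3 (0.27) or cow 6 (0.30). TIMP4 had levels of 8.05 to 8.78 (median 8.43) in 2× glands and 8.14 to 9.05 (median 8.77) in 4× glands, and it differed by 0.86, −0.04, 0.80, −0.27, 0.20 and 0.22 in cows 1 to 6. Its fitted difference was 0.29 (SE 0.12, adjusted p = 0.233 from limma), and 0.18 without cow 1 and 0.19 without cow 3, with no call in either case. The other TIMP4 probe sets gave 0.40 and, for the dimmest, 0.00.

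Of the 11 metalloproteinases, 1 was lower and 1 higher on day 21. MMP1, an interstitial collagenase, was dim, with a mean level of 3.85, and was higher in 6 of 6 cows by 0.04 to 0.37. Its fitted difference was 0.20 (SE 0.09, adjusted p = 0.285 from limma), and it lost its call without cows 1 (0.16), 3 (0.19) or 6 (0.16). MMP19 was lower by 0.39 on the log2 scale in the fit (−0.39, SE 0.18), with cow 1 at −1.43. Without cow 1 the difference of MMP19 was −0.18, without cow 3 it was −0.32, and without cow 2 or cow 6 it was −0.39, with no call in each case. MMP2, a gelatinase of the stroma, differed by 0.35, 0.03, 0.58, −0.45, −0.01 and −0.06 in cows 1 to 6, in no common direction (fitted 0.07, SE 0.12).

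**Figure D2:**
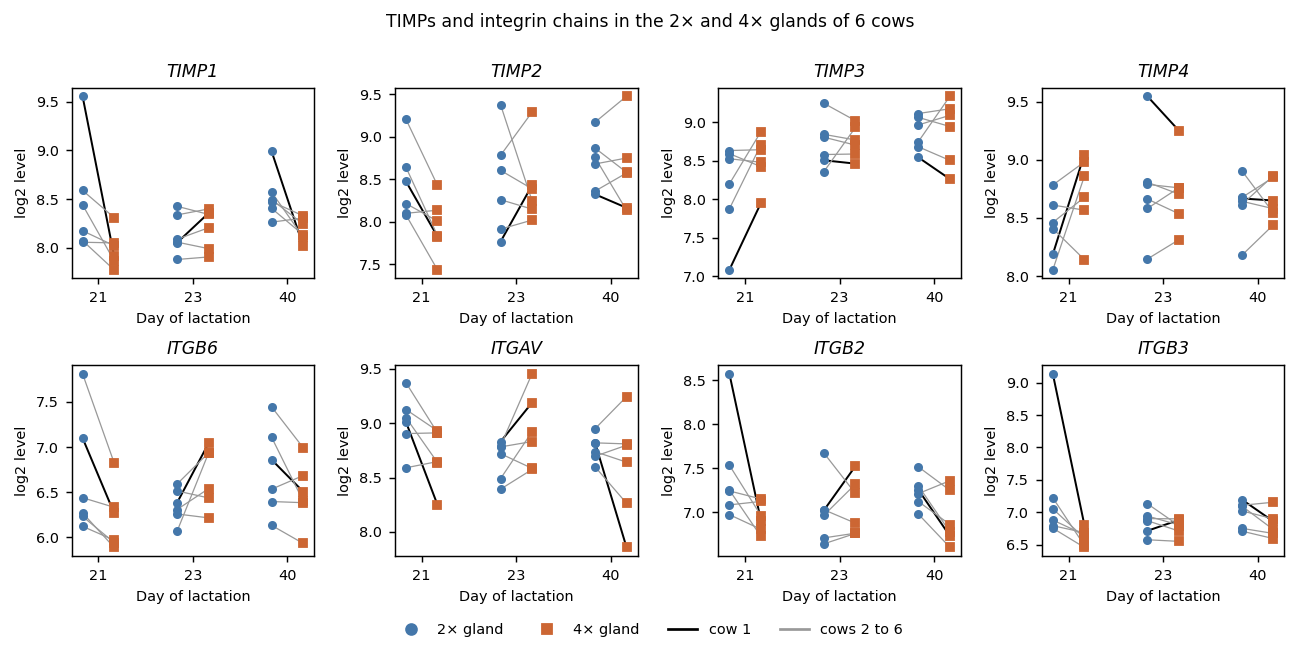
Log2 level (y axis) of the 4 TIMPs and of 4 integrin chains in each cow by day of lactation (x axis), with blue circles for 2× glands, orange squares for 4× glands and a line joining the glands of 1 cow (black for cow 1). On day 21 all 6 lines fall for TIMP1, ITGB6 and ITGB3, and cow 1 has the steepest for TIMP1, ITGB2 and ITGB3.

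All 7 integrin beta chains had fitted differences below 0 on day 21, and that of ITGB3 was the most negative of the 68 members. ITGB3, which pairs with ITGAV or with the platelet chain ITGA2B, had levels of 6.75 to 9.14 (median 6.97) in 2× glands and 6.46 to 6.81 (median 6.63) in 4× glands. The differences of ITGB3 were −2.33, −0.11, −0.73, −0.23, −0.30 and −0.45 in cows 1 to 6, lower in every cow. The fitted difference was −0.69 (SE 0.18, adjusted p = 0.180 from limma). Without cow 1 it was −0.36 and still called. The 3 other ITGB3 probe sets, with means from 4.41 to 5.30, gave 0.11, 0.14 and 0.12, so the direction rests on the probe set used.

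ITGB6, a beta chain of epithelial cells that pairs with ITGAV, was lower in 6 of 6 cows, by −0.83, −0.29, −0.98, −0.11, −0.15 and −0.38 in cows 1 to 6. Its levels were 6.12 to 7.81 (median 6.36) in 2× glands and 5.89 to 6.83 (median 6.12) in 4× glands, so the groups overlapped widely while every pair went the same way. The fitted difference of ITGB6 was −0.46 (SE 0.13, adjusted p = 0.180 from limma), called without each cow in turn. ITGAV had levels of 8.59 to 9.37 (median 9.03) in 2× glands and 8.25 to 8.93 (median 8.78) in 4× glands, with differences of −0.76, −0.41, −0.20, 0.06, 0.01 and −0.46. Its fitted difference was −0.29 (SE 0.13, adjusted p = 0.277 from limma), and it was not called without cow 1 (−0.20), cow 2 (−0.27), cow 3 (−0.31) or cow 6 (−0.26). ITGB5, a further partner of ITGAV, held between 13.35 and 13.61 over the 36 arrays, with a fitted difference of −0.01 (95% interval −0.12 to 0.10 on day 21).

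Among the leukocyte integrins with ITGB2, that common beta chain had levels of 6.97 to 8.58 (median 7.25) in 2× glands and 6.72 to 7.15 (median 6.93) in 4× glands. Its differences were −1.67, −0.17, −0.57, −0.09, 0.04 and −0.53 in cows 1 to 6. The fitted difference of ITGB2 was −0.50 (SE 0.16, adjusted p = 0.182 from limma), and −0.26 without cow 1, still called. ITGAL, the alpha chain of lymphocyte adhesion, differed by −0.94, −0.07, −0.21, −0.41, 0.07 and −0.02. Its fitted value was −0.26 (SE 0.12, adjusted p = 0.287 from limma), with no call without cow 1 (−0.13), cow 3 (−0.27) or cow 4 (−0.24). ITGAD was lower in 6 of 6 cows, by −1.32, −0.13, −0.54, −0.35, −0.05 and −0.41. The fit gave ITGAD −0.47 (SE 0.16, adjusted p = 0.184 from limma), and −0.30 without cow 1, still called. A dimmer ITGAD probe set gave 0.13. ITGAM, the alpha chain of the complement receptor of neutrophils and macrophages, was near background at a mean of 3.33 and differed by −0.11 to 0.33 among the cows (fitted 0.04, SE 0.08). Outside this group, ITGB7, ITGAE and ITGA4 were not called on day 21. Their mean levels were 8.16, 7.84 and 3.27 in 2× glands and 8.05, 7.88 and 3.29 in 4× glands.

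Markers of leukocytes differed in part on day 21, and not in the same direction in every list or cow. Of 5 neutrophil markers 3 were measured, and 2 of them were lower: S100A8 by −0.64 and S100A9 by −0.34. Their mean level lay between 5.49 and 7.40 in 2× glands and between 5.55 and 5.92 in 4× glands. Cow 1 differed by −1.70 and cow 3 by −1.47, and the remaining cows by −0.29 to 0.10. Of 4 macrophage markers CSF1R was lower (−0.39) and CD14 higher (0.42), with means of 8.23 to 8.67 in 2× and 8.23 to 8.41 in 4× glands. Of 8 lymphocyte markers, whose mean lay between 6.61 and 7.01 in 2× and between 6.46 and 6.81 in 4× glands, CD2 was lower (−0.23), with 5 of the 8 below 0 and 3 above. In cows 2, 4 and 6 the neutrophil mean differed by 0.04, 0.10 and 0.06. No marker of these lists had a mean level under 5. The part of leukocytes in the integrin differences was not tested.

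COL17A1 and 2 laminin chains were also lower on day 21, and all 3 lost their call without cow 1. Of the integrin chains that bind laminin, ITGB4, of hemidesmosomes, had a fitted difference of −0.20 (SE 0.12) and ITGA3 of −0.02, and neither passed. COL17A1, a transmembrane collagen of hemidesmosomes, had levels of 8.55 to 10.67 (median 8.93) in 2× glands and 8.08 to 8.92 (median 8.69) in 4× glands. The differences of COL17A1 were −1.75, −0.51, −0.25, −0.47, −0.00 and 0.10 in cows 1 to 6. Its fitted value was −0.48 (SE 0.20, adjusted p = 0.253 from limma), but −0.23 without cow 1 and −0.48 without cow 2, with no call in either case. A second COL17A1 probe set gave −0.56 on day 21. LAMB3, a chain of the laminin that hemidesmosomes bind, differed by −1.32, −0.22, 0.02, −0.22, −0.00 and −0.25, with a fitted value of −0.33 (SE 0.14, adjusted p = 0.248 from limma). Without cow 1 it was −0.13 and not called. LAMB2 was lower in 6 of 6 cows, from −1.50 to −0.05, with a fitted value of −0.34 (SE 0.16) and −0.11 without cow 1, not called.

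Epithelial and myoepithelial markers had differences of the same sign in part of their lists. KRT18 (−0.75) and EPCAM (−0.34), of 7 secretory epithelium markers measured, were lower on day 21, as was KRT5 (−0.48) of 7 myoepithelial markers. KRT8 was read from a dim probe set, with a mean level of 5.07, and was not called. The paper lists KRT8, from another probe set, among its genes lower in 4× glands on day 21. The mean over the secretory epithelium list differed by −0.36 in cow 1 and by −0.26 to −0.03 in the others, but 4 of the 7 markers, CSN2 and LALBA among them, had differences above 0 and the median was 0.02. It lay between 11.38 and 11.85 in 2× glands and between 11.31 and 11.52 in 4× glands. Over the myoepithelial list the range was 9.28 to 10.0 in 2× and 8.96 to 9.74 in 4× glands. Their part in the differences of COL17A1, LAMB3 and ITGB6 was not tested.

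In the interstitial matrix, FBN1, the backbone of elastic microfibrils, was the member called on day 21. It differed by −0.79, −0.15, −0.04, −0.62, 0.48 and −0.71 in cows 1 to 6. The fitted value of FBN1 was −0.30 (SE 0.13, adjusted p = 0.256 from limma), and it was −0.46 without cow 5 and uncalled without cow 1 (−0.21), cow 4 (−0.24) or cow 6 (−0.22). COL3A1, a fibrillar collagen of loose stroma, differed by 0.52, −0.20, 0.73, −0.59, 0.25 and −0.75, so cows were high and low alike. DCN, a proteoglycan that binds collagen fibrils, differed by −0.69, −0.16, 0.99, −0.88, 0.27 and −0.85. SPARC, a collagen-binding glycoprotein, ranged from −0.63 to 0.63 and COL6A1, of the microfibrils around cells, from −0.64 to 0.51. Of the basement membrane collagens, COL18A1, the parent protein of endostatin, differed by −0.96, 0.03, −0.03, −0.27, 0.49 and −0.68 (fitted −0.24, SE 0.15). For the interstitial genes the spread among cows was wider than any common shift: the 95% interval ran from −0.35 to 0.34 for COL3A1, from −0.63 to 0.19 for DCN and from −0.31 to 0.29 for SPARC. Of 8 fibroblast markers, S100A4 was lower on day 21 (−0.42), and their mean lay between 6.95 and 7.50 in 2× glands and between 6.78 and 7.15 in 4× glands. The part of fibroblasts in the FBN1 difference was not tested.

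Other genes of the pathway were counted from lists by function, to be read against 7.91% lower and 8.02% higher over all probe sets. Of 15 enzymes of collagen processing, 3 were lower on day 21 (LOXL4, PLOD1 and PLOD2, which crosslink or hydroxylate collagen, the last with a mean level under 5) and 2 higher (P4HA1 by 0.14 and P4HB by 0.23, subunits of prolyl hydroxylase, each in 6 of 6 cows). Of 19 other matrix and matrix receptor genes 3 were lower: CD44, the hyaluronan receptor (−0.65), DAG1, the laminin receptor dystroglycan (−0.41), and the collagen-binding FMOD (−0.43). Of 14 proteases and inhibitors PLAU, the urokinase, was lower (−0.30), and of 11 genes of integrin signalling FERMT2 was lower (−0.25), shares near that background. The adjusted p of these genes from limma lay between 0.182 and 0.304.

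On day 23, after 4× milking had stopped, 0 of 68 members were lower and 1 was higher, against 1.26% and 1.39% of all probe sets. The 1 member was ITGB6. It had levels of 6.07 to 6.59 (median 6.35) in 2× glands and 6.22 to 7.04 (median 6.74) in 4× glands, with differences of 0.66, −0.08, 0.35, 0.23, 0.87 and −0.04 in cows 1 to 6. The fitted difference of ITGB6 was 0.33 (SE 0.13, adjusted p = 1.0 from limma), with no call without cow 1 (0.26) or cow 5 (0.22). Without cow 4 there were 3 members higher, and without cow 5 or cow 6 there were 2. The next smallest p belonged to ITGAV, higher in 5 of 6 cows with a fitted difference of 0.26 (SE 0.13), and to COL13A1, a transmembrane collagen of cell adhesion sites, with differences of 0.22, 0.11, 0.30, 0.19, 0.34 and −0.18 (fitted 0.16, SE 0.09). The median difference of the members was 0.01.

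The change in differential expression from day 21 to day 23 was positive in all 8 members that were called, against 5.65% of all probe sets in that direction and 5.15% in the other. Of the members it was largest for ITGB6, at 0.79 (SE 0.18, 95% interval 0.40 to 1.17, adjusted p = 0.386 from limma). ITGB6 changed in the same direction in 6 of 6 cows (exact sign-flip p = 0.03125, the smallest possible) and was called without each cow in turn. Its partner ITGAV changed by 0.55 (SE 0.19, adjusted p = 0.392 from limma), upwards in 5 of 6 cows and called without each cow in turn. ITGAV had 2 probe sets, of which only that with the highest mean is given here. The members called also included TIMP1, at 0.55 (SE 0.21, upwards in 6 of 6 cows, and 0.27 without cow 1, still called). The other 5 were FBN1, ITGB2, ITGB3, MMP19 and COL13A1.

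Cow 1 weighed on part of that list. FBN1 changed by 0.51 (SE 0.18), and by 0.34 without cow 1, no longer called. ITGB2 changed by 0.57, and by 0.25 without cow 1, 0.56 without cow 3 and 0.55 without cow 6, with no call in each case. ITGB3 changed by 0.61, with 2.498 in cow 1 alone, and by 0.23 without cow 1 and 0.59 without cow 3, both uncalled. MMP19 changed by 0.59, and by 0.20 without cow 1, 0.51 without cow 3 and 0.60 without cow 6, uncalled. COL13A1 changed by 0.31 in the same direction in 6 of 6 cows, with no call without cow 4 (0.28) or cow 5 (0.22). Without cow 1, 4 members were called upwards, and without cow 4, 6 were called downwards where none had been, and leaving out cow 2 or cow 5 gave 1 downwards. With arrays scaled to 5 reference genes, 6 members changed downwards and 7 upwards. Day 23 was read in fore glands, and the part of the gland position in these changes cannot be told apart from that of the day.

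Genes beside the members with a change at an unadjusted p under 0.05 included 6 of 19 other matrix genes, all upwards: CD44 (0.82), FBLN1 (0.60), FMOD (0.52), DAG1 (0.50), VCAN (0.31, with a mean level under 5) and MFAP2 (0.26). Over all probe sets 5.65% changed upwards and 5.15% downwards. CD44 was upwards in 4 of 6 cows and DAG1 and FMOD in 6. Of the 15 collagen enzymes LOXL4 (0.59) and PLOD2 (0.50, in 3 of 6 cows and with a mean level under 5) changed upwards and P4HA1 (−0.26) downwards. PLAU, ADAM9 and A2M, of the 14 proteases and inhibitors, and RSU1, of the 11 genes of integrin signalling, changed upwards.

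On day 40, when both sides had been milked alike since day 21, 6 members (8.82%) were lower and 10 (14.7%) higher in the formerly 4× glands. The background was 8.86% lower and 11.6% higher over all probe sets, so the shares of the members were near it. The members called lower were COL4A1, COL15A1, LAMC1, COL17A1, ITGAD and TIMP1. Those called higher were ELN, 4 fibrillar collagens (COL11A1, COL11A2, COL2A1 and COL5A3), 3 other collagens (COL10A1, COL26A1 and COL9A1), MMP3 and MMP16. The smallest adjusted p of a member was 0.172. After scaling to 5 reference genes 11 members were lower and 3 higher. Without cow 2 the count of members higher was 19, without cow 3 it was 6 and without cow 6 it was 5.

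**Figure D3:**
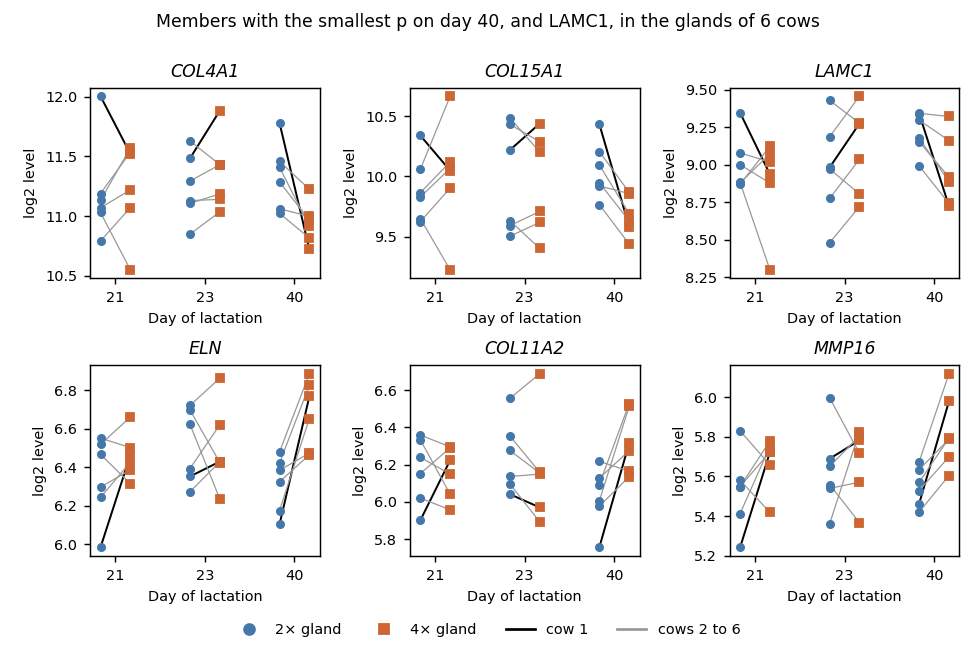
Log2 level (y axis) of COL4A1, COL15A1, LAMC1, ELN, COL11A2 and MMP16 in the 2× glands (blue circles) and 4× glands (orange squares) of each cow by day of lactation (x axis), with a line joining the glands of 1 cow (black for cow 1). On day 40 all 6 lines fall for COL4A1, COL15A1 and LAMC1 and all 6 rise for ELN and MMP16, whereas on days 21 and 23 the lines of COL4A1 and COL15A1 run both ways.

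The 3 basement membrane genes called lower (COL4A1, COL15A1 and LAMC1) were so in 6 of 6 cows. COL4A1, a chain of the type IV collagen network, had levels of 11.02 to 11.78 (median 11.35) in 2× glands and 10.72 to 11.22 (median 10.94) in 4× glands. Its differences in cows 1 to 6 were −1.06, −0.23, −0.49, −0.32, −0.21 and −0.06. The fitted difference of COL4A1 was −0.40 (SE 0.13, adjusted p = 0.178 from limma), and −0.26 without cow 1, still called. COL15A1, which links basement membrane to the stroma, had levels of 9.77 to 10.44 (median 10.02) in 2× glands and 9.44 to 9.87 (median 9.66) in 4× glands. Its differences were −0.85, −0.34, −0.41, −0.33, −0.06 and −0.32, and the fitted value was −0.38 (SE 0.11, adjusted p = 0.172 from limma), called without each cow. Second probe sets gave −0.33 for COL4A1 and −0.32 for COL15A1.

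LAMC1, the gamma chain of most basement membrane laminins, had levels of 8.99 to 9.34 (median 9.24) in 2× glands and 8.73 to 9.32 (median 8.90) in 4× glands. It differed by −0.62, −0.02, −0.25, −0.14, −0.24 and −0.29 on day 40, lower in every cow. The fitted value of LAMC1 was −0.26 (SE 0.10, adjusted p = 0.197 from limma), and −0.19 without cow 1, not called. Its 5 dimmer probe sets gave between 0.02 and 0.11, and the mean over all 6 gave 0.024, the other direction. All 5 laminin chains had fitted differences below 0, and 1 passed. COL4A3 and COL4A4, the chains of a more restricted type IV network, had fitted values of 0.16 and 0.25 and did not pass.

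Of the 19 other matrix genes, 3 were lower on day 40 (HSPG2, the basement membrane proteoglycan perlecan, FMOD and PRELP) and 1 higher (VCAN). Of the collagen enzymes 1 was lower and 2 higher, and of the proteases and inhibitors 2 were lower and 2 higher. Of the 11 genes of integrin signalling 4 were lower and 0 higher, against 8.86% lower over all probe sets: ACTN1 (−0.38) and ACTN4 (−0.39), which crosslink actin, TLN1 (−0.29), which activates integrins, and VCL (−0.25). All 4 had a mean level of 8 or over, where 17.7% of all probe sets were lower. Of 6 endothelial markers 5 had differences below 0 and TIE1 was called lower (−0.22), in 6 of 6 cows. The mean of the endothelial list lay between 6.48 and 6.91 in 2× glands and between 6.43 and 6.86 in 4× glands, and cow 1 differed by −0.47, the remaining cows by −0.20 to 0.04. Of these markers 1 had a mean level under 5. The part of the endothelium in the COL4A1 and COL15A1 differences was not tested.

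COL17A1, ITGAD and TIMP1 were called lower on day 40 as well as on day 21. COL17A1 differed by −1.58, −0.34, −0.78, 0.30, 0.03 and −0.87 in cows 1 to 6 (fitted −0.54, SE 0.20), −0.33 without cow 1 and −0.49 without cow 3, the latter uncalled. Its second probe set gave 0.34 on day 40, in the other direction. ITGAD differed by −1.06, −0.03, −0.56, 0.04, −0.17 and −0.69 (fitted −0.41, SE 0.16), uncalled without cow 6 (−0.36), and its dimmer probe set gave 0.40. TIMP1 differed by −0.97, −0.15, −0.25, −0.27, 0.04 and −0.46 (fitted −0.34, SE 0.15), −0.22 without cow 1, and uncalled without cow 3 (−0.36), cow 4 (−0.36) or cow 6 (−0.32). On day 40, 1 of 7 secretory epithelium markers was lower (EPCAM, −0.30, with 3 below 0 and 4 above), as were 2 of 7 myoepithelial markers (KRT5, −0.42, and MYH11, −0.27, with 5 below 0) and 1 of 8 lymphocyte markers (PTPRC, −0.37, with 4 below 0 and 4 above). No neutrophil, macrophage or fibroblast marker was called, and 2 of 4 adipocyte markers, both with a mean level under 5, were higher. Their part in the differences of the members was not tested.

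ELN, which encodes tropoelastin, had levels of 6.10 to 6.48 (median 6.35) in 2× glands and 6.47 to 6.89 (median 6.71) in 4× glands on day 40. It was higher in 6 of 6 cows, by 0.67, 0.09, 0.48, 0.40, 0.14 and 0.41. The fitted difference of ELN was 0.36 (SE 0.09, adjusted p = 0.172 from limma), called without each cow, but its second probe set gave 0.07. COL11A2, a minor fibrillar chain best known in cartilage, differed by 0.56, −0.05, 0.15, 0.43, 0.16 and 0.51 (fitted 0.29, SE 0.08, adjusted p = 0.172 from limma). MMP16, a membrane-type metalloproteinase, was higher in 6 of 6 cows, by 0.15 to 0.52 (fitted 0.28, SE 0.09). It had 3 probe sets, of which only that with the highest mean is given here. COL11A2 and MMP16 were called without each cow in turn.

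The remaining members called higher on day 40 had smaller differences, and each lost its call without at least 1 cow, in part with no fall in the difference itself. COL5A3, a minor chain of type V collagen, differed by 0.35, −0.05, 0.48, 0.13, 0.08 and 0.36 (fitted 0.22, SE 0.09), uncalled without cow 3 (0.17) or cow 6 (0.20). COL11A1 was 0.25 and COL2A1 0.25, and both lost their call without cow 1 (0.22 and 0.20) or cow 6 (0.18 and 0.21), and COL2A1 also without cow 3 (0.22) or cow 4 (0.21). COL26A1 was 0.21, uncalled without cow 1 (0.16), cow 3 (0.21) or cow 6 (0.16). MMP3 was 0.24, uncalled without cow 6 (0.19). COL10A1 was 0.24, rising to 0.37 without cow 2 and uncalled without cow 1 (0.19), cow 3 (0.19), cow 4 (0.21) or cow 6 (0.17). COL9A1 was 0.20, uncalled without cow 1 (0.18), cow 3 (0.21) or cow 6 (0.13). COL11A1, COL2A1, COL26A1, MMP3 and COL9A1 had more than 1 probe set, and only that with the highest mean is given here.

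**Figure D4:**
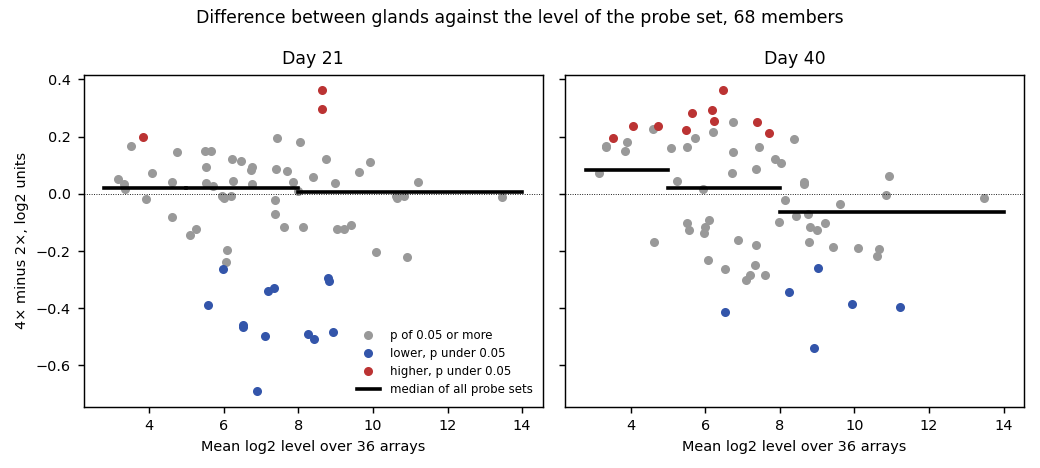
Fitted difference between 4× and 2× glands (y axis, log2 units) against the mean log2 level of the probe set over 36 arrays (x axis) for the 68 members on days 21 and 40, with blue points for members called lower and red for those called higher. Black bars give the median difference of all probe sets with a mean under 5, from 5 to 8, and of 8 and over: on day 40 they step from 0.08 through 0.02 to −0.06, and no red point lies at a level of 8 or over.

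Direction on day 40 went with the level of the probe set, a comparison made after the values were seen. All 10 members called higher had a mean level under 8, 3 of them under 5, and 5 of the 6 called lower had a mean of 8 or over. The same was seen over all probe sets. With a mean under 5, 16.1% were higher and 2.03% lower, with a median difference of 0.08, and with a mean of 8 and over, 1.41% were higher and 17.7% lower, with a median of −0.06. The part of this in the differences of the members was not tested. On day 21 the medians at the 3 levels lay between 0.00 and 0.02, and the 13 members called lower were 8 with a mean from 5 to 8 and 5 of 8 and over. The shares of all probe sets called on day 21 rose with the level, from 3.66% lower and 3.66% higher under 5. They were 9.62% and 8.03% from 5 to 8, and 10.4% and 15.2% at 8 and over.

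In a comparison added after the data were seen, the difference between glands changed from day 21 to day 40 in 5 members at an unadjusted p under 0.05, against 3.3% of all probe sets downwards and 2.71% upwards. COL15A1 changed by −0.49 (SE 0.16, adjusted p = 0.789 from limma), downwards in 5 of 6 cows and called without each cow in turn. COL4A1 changed by −0.44 (SE 0.18), downwards in 5 of 6 cows, with no call without cow 3 (−0.34) or cow 5 (−0.42). Of 6 endothelial markers 3 changed downwards and 0 upwards at this threshold, with 5 below 0 and 1 above. On day 21 alone 2 of these markers were higher and 0 lower, with 5 above 0. The part of the endothelium in the COL15A1 and COL4A1 changes was not tested. COL11A2 (0.30), COL13A1 (0.30) and ITGB3 (0.53) changed upwards. COL11A2 was uncalled without cow 5 (0.27) or cow 6 (0.25), COL13A1 without cow 1 (0.25), cow 2 (0.28) or cow 5 (0.21), and ITGB3 without each cow except cow 2, with 0.24 without cow 1.

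Within glands of 1 side, COL1A1 was higher on both later days, as were COL3A1 and COL6A1 in part of the comparisons. On day 40 the part of the earlier biopsy of the same glands cannot be told apart from that of the day. In 2× glands, 4 members were lower and 7 higher on day 23 than on day 21, against 8.65% and 7.5% of all probe sets, and 0 lower and 7 higher on day 40, against 3.73% and 3.06%. In 4× glands 0 were lower and 7 higher on day 23, against 1.98% and 1.82%, and 2 were lower and 9 higher on day 40, against 5.24% and 3.44%. After scaling to 5 reference genes the counts were 2 lower and 10 higher in 2× glands on day 23, and 2 lower and 2 higher in 4× glands on day 40. These counts moved with single cows. In 2× glands on day 23 the count lower was 1 without cow 1, 8 without cow 2, 0 without cow 3 and 8 without cow 5, and the count higher was 12 without cow 4. In 2× glands on day 40, 4 were higher without cow 5, and 1 was lower without cow 4. In 4× glands 13 were higher on day 23 without cow 3 and 4 without cow 4 or cow 5. In 4× glands on day 40, 4 were higher without cow 4, and 1, 1 and 0 were lower without cows 1, 3 and 5. At an adjusted p of 0.05, no member and 0.00416% of all probe sets passed in 2× glands on day 40, and no member and 0.0583% in 4× glands.

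Within a side, both later days were compared with the same day 21 arrays, so the 2 comparisons are not independent. COL1A1, the main fibrillar collagen chain, was called higher in all 4 comparisons over time, by 0.34 to 0.36. Its median level in 2× glands was 9.004 on day 21, 9.32 on day 23 and 9.26 on day 40, and in 4× glands 8.93, 9.17 and 9.30. In 4× glands COL1A1 was called without each cow in turn, and in 2× glands it was not called without cow 2 (0.27 on day 23 and 0.25 on day 40) or, on day 40, cow 5 (0.28). Of 10 alternatives, cows left out included, COL1A1 kept its call in 8 in 4× glands on each later day. In 2× glands it did so in 8 on day 23 and in 7 on day 40. COL3A1 was higher by 0.52 on day 23 in 4× glands, called without each cow. It was higher by 0.49 on day 40 in both 2× and 4× glands, uncalled in 2× glands without cow 1 (0.38), cow 2 (0.42) or cow 5 (0.43), and in 4× glands without cow 2 (0.34) or cow 4 (0.39). COL6A1 was higher by 0.43 (SE 0.13) in 2× glands on day 40, in 6 of 6 cows and called without each. Of 8 fibroblast markers, 2 were higher on day 40 in 2× glands and 3 in 4× glands, with 7 above 0 on each side. Over all probe sets 3.06% and 3.44% were higher. On day 23, 1 fibroblast marker was lower in 2× glands and 1 higher in 4× glands. The part of fibroblasts in the collagen differences over time was not tested.

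Among the TIMPs, TIMP3 was higher in 2× glands by 0.57 (SE 0.16) on day 23 and by 0.70 (SE 0.16, adjusted p = 0.207 from limma) on day 40, the latter in 6 of 6 cows. Its lowest, median and highest levels in 2× glands were 7.08, 8.36 and 8.63 on day 21 and 8.54, 8.86 and 9.12 on day 40. TIMP2 was higher in 4× glands, by 0.48 (SE 0.17) on day 23, or 0.31 and uncalled without cow 2, and by 0.67 (SE 0.17, adjusted p = 0.225 from limma) on day 40, in 6 of 6 cows. TIMP3 was also higher in 4× glands on day 40, by 0.37 (SE 0.16), uncalled without cow 2 (0.33), cow 3 (0.32) or cow 5 (0.30), and TIMP4 in 2× glands on day 23, by 0.34, uncalled without cow 1 (0.13) or cow 6 (0.34). TIMP2 on day 40 and TIMP3 in 2× glands on both days were called without each cow in turn.

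COL4A1 and COL15A1 were lower in 4× glands on day 40 than on day 21, by −0.30 (SE 0.14) and −0.33 (SE 0.13), and in 2× glands their fitted values were 0.13 and 0.17, neither of which passed. COL15A1 was not called without cow 5 (−0.23), nor COL4A1 without cow 1 (−0.21), cow 3 (−0.23) or cow 5 (−0.22). ITGB6 in 4× glands was higher on day 23 than on day 21 by 0.48 (SE 0.16, adjusted p = 1.0 from limma), in 6 of 6 cows and called without each, and its value in 2× glands was −0.31, which did not pass. ITGAV, ITGB2, ITGB3 and TIMP1 were the 4 members called lower on day 23 in 2× glands, at −0.34, −0.44, −0.45 and −0.34, ITGB3 in 3 of 6 cows. Without cow 1 the last 3 were −0.21, −0.06 and −0.11, all uncalled. Without cow 3 all 4 were uncalled, at −0.26, −0.36, −0.41 and −0.27, and without cow 6 ITGAV (−0.23) and TIMP1 (−0.34) were.

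**Figure D5:**
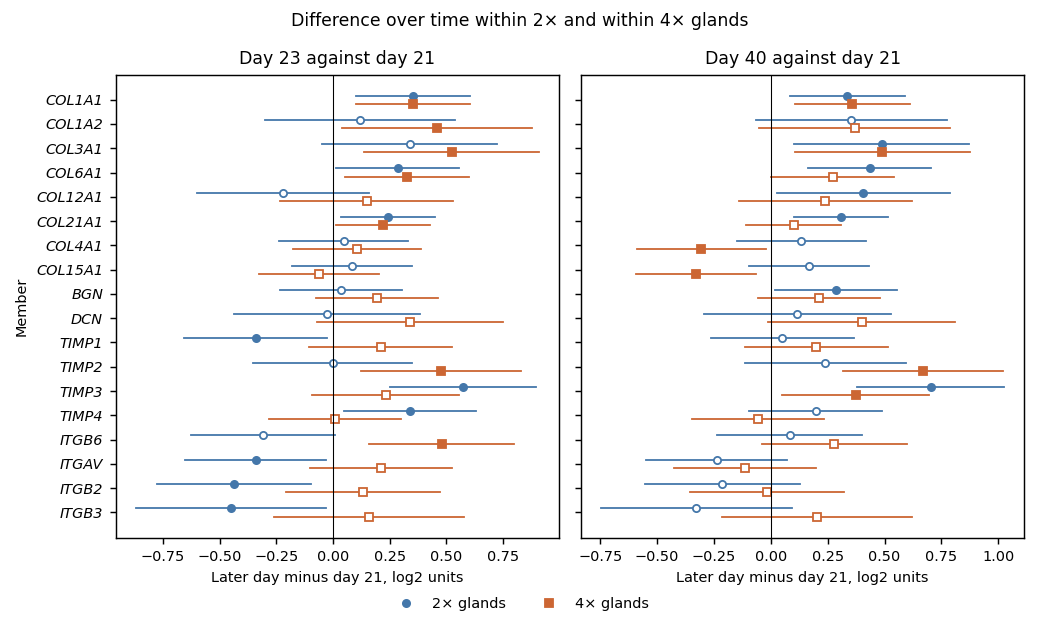
Fitted difference of day 23 and of day 40 from day 21 (x axis, log2 units) within 2× glands (blue circles) and within 4× glands (orange squares) for 18 members (y axis), with 95% confidence intervals from limma over 6 cows; filled symbols passed an unadjusted p under 0.05. COL1A1 is filled in all 4 positions, and ITGB6 on day 23 has a filled symbol above 0 in 4× glands and an open one below 0 in 2× glands.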

How the data were processed

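Mammary biopsies of 6 cows were measured on 36 bovine oligonucleotide arrays, 1 for each biopsy. The authors made log2 values with the Robust Multichip Average (RMA), which subtracts background, quantile-normalizes the arrays and combines the probes of a set. Its version is not given in the sources used here. The deposited table holds log2 values of 24128 probe sets, and precision is limited by the small number of cows. Of the probe sets, 112 controls were left out and 24016 tested, 7491 of them with a mean under 5, near background, as were 10 members. Symbols came from the array's annotation of 2016, in which 13318 probe sets had 1 symbol, 86 had more and 10724 had none. All 68 members' gene IDs carried the same symbol in RefSeq, and 40 members had more than 1 probe set (130 in all). Differences of the other probe sets are given for only part of these 40 members. No sequences were used here.

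Groups were milking frequency by day per the labels, where the replicate number is the cow. Same-numbered glands deviated together in 18 of 18 pairs (correlation 0.242 to 0.665). The 18 differences within cows were fitted with the lmFit and eBayes functions of limma 3.58.1 under R 4.3.3 (two-sided, each day its own mean, 1 shared spread), and p-values were adjusted by the method of Benjamini and Hochberg over all probe sets. The differences of a cow on different days were taken as independent, also for the changes between days, whose SEs rest on that. Calls were made at an unadjusted p under 0.05, with no minimum fold. Changes over time came from a fit of the 36 arrays that took cow as a fixed block. For single genes the signs of the cows' differences were also flipped in all 64 ways (an exact permutation test, two-sided, smallest p 0.03125). The fit was tested on simulated data. Tables were made in Python 3.11.15 (numpy 2.4.6, pandas 2.3.3) and plots in matplotlib 3.10.9.

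The members and gene lists were chosen with earlier results of these data known. Given by cow were, in each subclass, the member with the smallest p on day 21 and that with the highest mean, the 3 members with the smallest p on days 23 and 40 and in the change between days 21 and 23, the leukocyte integrins ITGAL, ITGAM, ITGAX and ITGB2, and the TIMPs (29 members measured). Alternatives were other blocks, spreads and moderation, centring, scaling to 5 reference genes, dim probe sets left out, the mean over all probe sets of a gene, the day 21 pair of cow 1 left out, and every cow omitted once. Counts by level, means over subclasses and the change from day 21 to day 40 were added after the data were seen.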

Additional observations from a re-analysis of the deposited data

Results flagged for a closer look

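Among the 29 members given by cow, 116 sets of 6 differences (each day, and the change from day 21 to day 23) were searched for a cow that stood apart from the other 5 by Dixon's test, and 12 had one. Chance flags about 1 in 20 such sets, and the sets share cows and arrays, so the flags are not independent. Cow 1 stood apart on day 21 in COL17A1 (−1.75, median of the other cows −0.25), ITGB2 (−1.67, others −0.17), ITGB3 (−2.33, others −0.30), LAMB3 (−1.32, others −0.22) and TIMP1 (−1.64, others −0.28). In the change from day 21 to day 23 it stood apart in COL17A1 (1.53, others 0.43), ITGB3 (2.498, others 0.29), LAMB3 (1.29, others 0.22) and TIMP1 (1.94, others 0.23). On day 40 cow 1 stood apart in SPARC (−1.06, others −0.02) and cow 3 in DCN (0.97, others −0.06), and on day 23 cow 5 stood apart in TIMP3 (0.57, others −0.07). In no member did the difference between glands differ between days at an adjusted p under 0.05.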

How the results depend on the processing

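Single differences of the members given by cow kept their side of the threshold in 1701 of 1848 values over all alternatives. Of the rest, 94 lost a call, 52 gained one, and 1 reversed: LAMC1 on day 40 was 0.024 as the mean over all probe sets of the gene. Direction was compared only for the 31 differences called in the main setting, and the 1701 include uncalled differences that stayed uncalled, whatever their sign. Counts moved more. With no replicate block for the pairing of glands, 6 members were lower and 0 higher on day 21, 0 higher on day 23, 3 lower and 5 higher on day 40, and 4 changed upwards. Over time, without that block, 1 member was higher on day 23 in 2× glands and 1 in 4× glands, 2 were higher on day 40 in 2× glands, and in 4× glands 0 were lower and 3 higher. With cow as a fixed replicate block 1 member changed downwards, and of the 31 called differences of members given by cow 4 were lost, those of FBN1, ITGAL, ITGAV and MMP1 on day 21. With a separate spread for each day, 8 were lower on day 21, 2 higher on day 23 and 10 lower on day 40. With no moderation 8 were lower on day 21, and with trend and robust moderation 2 were higher on day 23. With the mean over all probe sets of a gene, 2 were higher on day 23, 2 lower on day 40 and 2 changed downwards. Without the day 21 pair of cow 1, 5 were lower and 0 higher on day 21, 2 higher on day 23, 11 lower on day 40, and 1 changed downwards.

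Scaling to 5 reference genes, of which GAPDH itself differed by −0.39 on day 21, moved the median of all probe sets by 0.096 on day 21 and by −0.14 for the change from day 21 to day 23. With it 7 members were lower and 6 higher on day 21 (median 0.089), 11 lower and 3 higher on day 40, and 6 changed downwards (median −0.13); over time 2 were lower on day 23 in 2× glands, 3 higher on day 23 in 4× glands and 2 higher on day 40 in 4× glands.

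With each cow left out in turn, members lower numbered 6 to 14 and higher 0 to 4 on day 21, 0 lower and 1 to 3 higher on day 23, 4 to 9 lower and 5 to 19 higher on day 40, and 0 to 6 changed downwards and 4 to 10 upwards. Over time, lower and higher ranged from 0 to 8 and from 5 to 12 in 2× glands on day 23, from 0 to 1 and from 4 to 8 in 2× glands on day 40, from 4 to 13 higher in 4× glands on day 23, and from 0 to 2 and from 4 to 13 in 4× glands on day 40. The cause of these shifts was not tested. The 10 members with a mean under 5 lay near background, and small differences in them are least certain.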

Other observations

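In cow 4, 61 of 68 members were higher on day 40 than on day 21 in the 4× gland and 7 lower, with a median of 0.33, against 0.02 over all probe sets of that cow. In cow 3, 23 were higher and 45 lower, with a median of −0.09. The cows thus differed in the direction of the whole set between these days. In the 2× gland of cow 4, 49 were higher and 19 lower, with a median of 0.10.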
